A study of Solanum lycopersicum with 8 samples.

Results

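The subject is a set of 42 tomato genes, of 29345 listed, whose 3′ end tags reached 2-fold after heat in anthers and stayed under that limit in leaf. Genes were chosen on the measured values themselves. A member had a log2 ratio of (heat + 1) over (control + 1) of at least 1, at a mean of at least 10 CPM over heat and control, in both anther pairs, and a ratio below 1 in both leaf pairs. Levels are in CPM, tags scaled to 1000000 per library with no gene length term. Each transcript gives 1 tag, so levels of different genes are on 1 scale. The heat ratios below used the same values, so they describe the choice and are not tested. With 1 library per group, no heat ratio has a replicate check. In whole tissues, more cells of a type and more RNA per cell cannot be told apart.

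The 8 libraries, made by massive analysis of cDNA ends, came from 8-week-old plants of cv Moneymaker. They cover anthers and young leaves, plants labelled A2AS and wild type (WT), and heat-stressed and control plants, with 1 library in each combination. Heat was 1 h at 39 °C followed by 1.5 h at 24 °C, while the labels do not describe how control plants were handled. A2AS plants are known from the study as transgenics with suppressed HsfA2, the heat stress transcription factor in its title. No source used here gives the construct's promoter, the number of lines or whether plants were pooled. Anthers of several developmental stages were collected, so each anther library mixes stages.

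As background, plants answer heat within minutes to hours through heat stress factors (Hsfs), which switch on genes for chaperones that keep proteins folded. HsfA2 is itself heat-inducible and prolongs this response. Developing pollen and the tapetum, the cell layer that feeds it, are among the most heat-sensitive plant tissues, and anthers are therefore often studied apart from leaves. The files do not pair gene IDs with names, and none of the 41476 rows of the reference table held an ID of this form. The 42 members are thus described by ID, level and pattern, and no function is assigned to them. Names given below to other genes rest on published tomato nomenclature.

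Libraries held 6243965 (heated A2AS leaf) to 14764187 reads (control A2AS anther), and 3 reads corresponded to 0.203 to 0.480 CPM. HsfA2 (Solyc08g062960) was lower in leaf labelled A2AS, at 2.72 CPM after heat and 2.25 CPM in control, against 21.7 and 10.3 CPM in WT leaf. After heat the anther library labelled A2AS had 39.3 CPM of HsfA2, against 22.3 CPM in heated WT anthers, which goes against its label. Control anthers had 1.08 CPM in the library labelled A2AS and 1.93 CPM in WT. The pollen gene LAT52 lay between 106 and 295 CPM in anther libraries and at most at 2.67 CPM in leaf, and 4 tapetum genes summed to 247 to 445 CPM in anthers and at most 4.04 CPM in leaf. Leaf markers, 3 genes for the small subunit of Rubisco, the carbon-fixing enzyme, summed to 1967 to 2776 CPM in anthers and 13678 to 38082 CPM in leaf. LAT52 differed between the anther libraries, at 163 CPM after heat and 136 in control in those labelled A2AS, and at 106 after heat and 295 in control in WT. None of the 5 pollen and tapetum genes was 2-fold higher after heat in both anther pairs. All 4 tapetum genes nonetheless had log2 heat ratios above 0 in both anther pairs at the deposited scaling, all under 1. Their log2 heat ratios in anthers labelled A2AS were 0.72 for MS10, 0.50 for TDF1, 0.14 for AMS and 0.07 for MS32. In WT anthers they were 0.70, 0.67, 0.28 and 0.41 in the same order. The part of stage mixture in the results below was not tested.

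In all, 140 of the 9114 genes that passed the minimum in both anther pairs reached 2-fold after heat in both, which is 1.54%. In single pairs, with the same minimum of 10 CPM, 2.22% of genes reached it in anthers labelled A2AS, 2.55% in WT anthers, 2.64% in A2AS leaf and 4.01% in WT leaf. Of the 140 genes, 78 also reached 2-fold in both leaf pairs, 10 in A2AS leaf only and 9 in WT leaf only. The remaining 43 include HsfA3 (Solyc09g009100), which was left out by name, and leave the 42 members, 0.461% of the 9114 genes. Nothing is read from these shares, since the rule used the same ratios. HsfA3 stood at 31.5 CPM after heat and 12.6 in control in anthers labelled A2AS, and at 22.7 and 10.2 CPM in WT anthers. In leaf it was at 38.1 CPM after heat and 39.6 in control in A2AS, and at 51.8 and 38.8 CPM in WT. Among 33 listed Hsf, chaperone and coactivator genes, 20 reached both the 10 CPM minimum and 2-fold in both anther pairs. Of these, 15 were also at least 2-fold higher in both leaf pairs. HsfA7 and HsfB2b were 2-fold higher in both anther pairs as well, but under the minimum. Their log2 heat ratios were 2.27 and 1.48 in anthers labelled A2AS, and 2.27 and 1.56 in WT anthers. In leaf they were 0.68 and 0.40 in A2AS, and 0.27 and −1.04 in WT. HsfA3 was the only one of the 33 to meet the rule's ratios and minimum. All 10 listed small heat shock proteins, which hold unfolding proteins in solution, were at least 2-fold higher in all 4 pairs and hold no member.

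**Figure D1:**
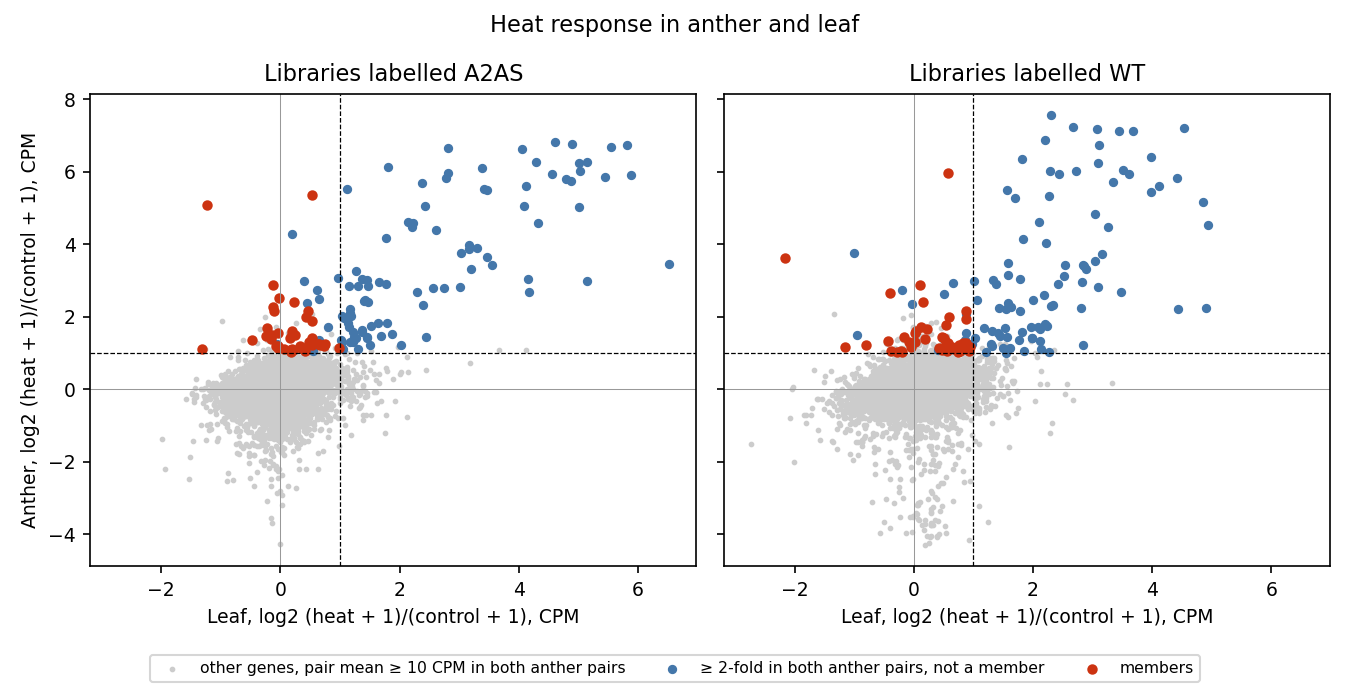
Each point is a gene, with the log2 heat ratio in leaf on the horizontal axis and in anther on the vertical axis, for libraries labelled A2AS (left) and WT (right); dashed lines mark the 2-fold limit. The 42 members (red) lie above the limit in anther and left of it in leaf, mostly close to the horizontal limit, while most of the other genes 2-fold higher in both anther pairs (blue) reach larger ratios in both tissues.

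Most members had modest ratios. The median log2 heat ratio was 1.34 in anthers labelled A2AS (1.02 to 5.37) and 1.29 in WT anthers (1.02 to 5.96), beside medians of 0.04 and 0.07 over all genes at the minimum. For 22 members the ratio was under 1.5 in both anther pairs, and for 4 it was at least 2 in both. The 78 genes higher in both tissues had medians of 3.16 in anthers labelled A2AS and 3.02 in WT anthers. In leaf, where the rule capped the ratio, the members' median was 0.20 in A2AS and 0.44 in WT. Together the members summed to 3985 CPM after heat and 1473 CPM in control in anthers labelled A2AS, a ratio of 2.70. The corresponding sums in WT anthers were 3715 and 1386 CPM, a ratio of 2.68. Leaf sums differed less, at 2312 CPM after heat and 2079 in control in A2AS, and at 3793 and 3082 CPM in WT.

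**Figure D2:**
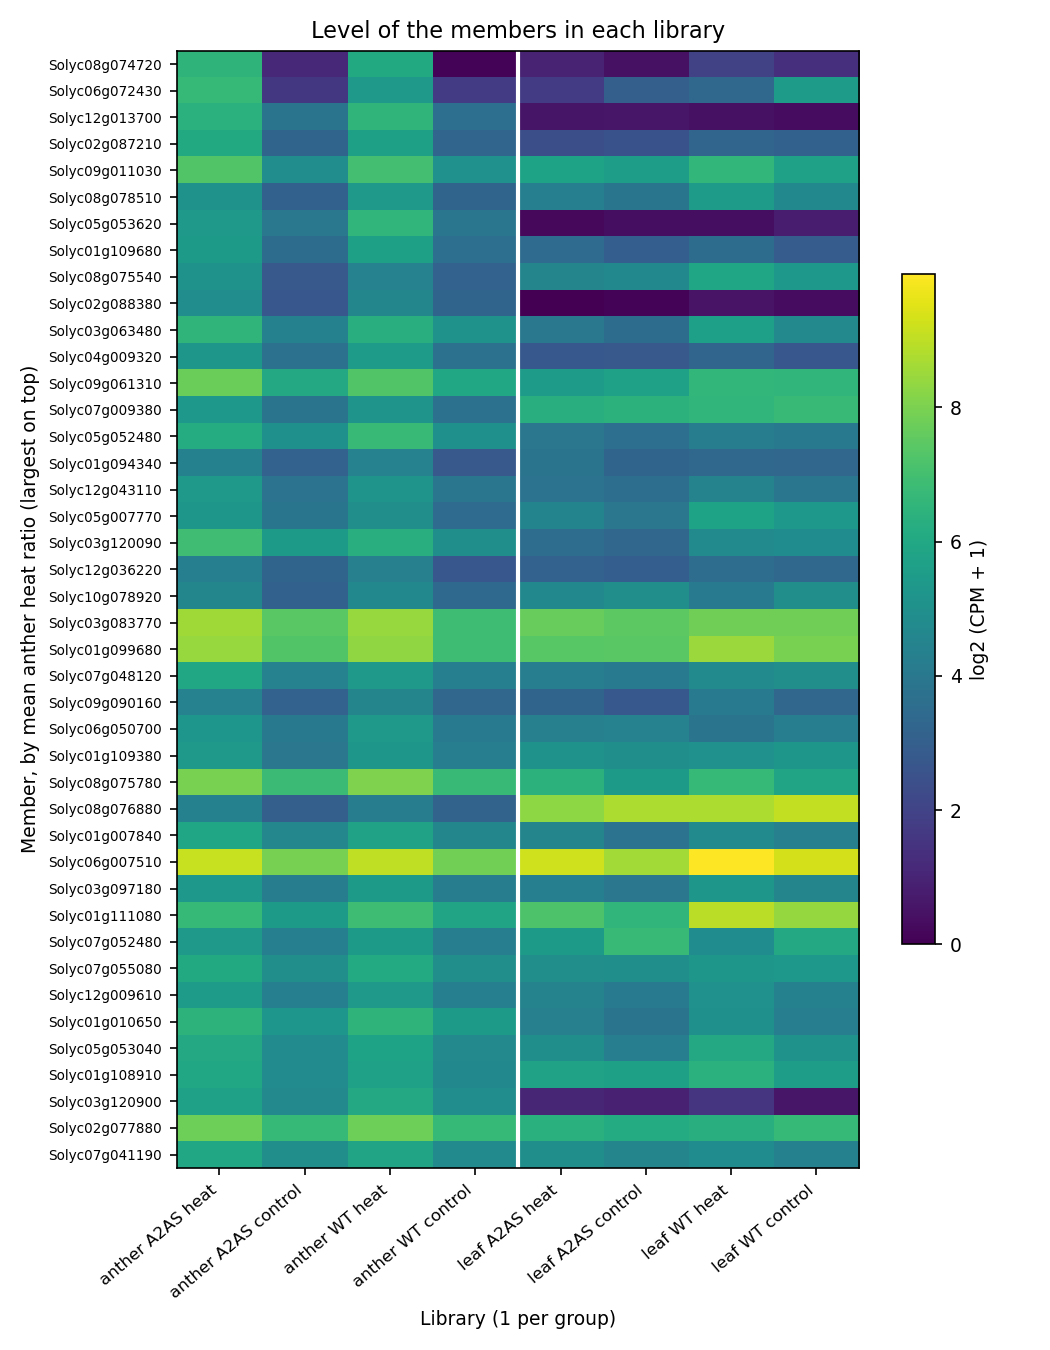
Colour gives the level as log2 (CPM + 1) of each of the 42 members (rows, largest mean anther heat ratio on top) in each of the 8 libraries (columns, 1 per group, anther left of the white line). Heated anther columns are brighter than the control anther columns beside them in every row, and leaf columns range from near 0 to above the anther levels.

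Solyc08g074720 and Solyc06g072430 stood apart, as the only members with a log2 ratio of at least 3 in either anther pair. Solyc08g074720 was low without heat in anthers and low in leaf. It had 88.0 CPM after heat and 1.15 CPM in control in anthers labelled A2AS, a 76.4-fold difference (47.5 to 132). Brackets give exact 95% counting intervals, which cover counting error only. In WT anthers it had 66.4 CPM after heat and 0.0806 CPM in control, where the control value is 1 read and the ratio of 824 has an interval of 148 to 32581. In leaf it reached 0.961 CPM after heat and 0.362 in control in A2AS, and 2.81 and 1.56 CPM in WT. The heated anther libraries were thus the only ones above 3 CPM for this gene.

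Solyc06g072430 went opposite ways in the tissues. In anthers labelled A2AS it had 103 CPM after heat and 2.03 CPM in control, a 50.6-fold difference (35.3 to 75.3). The WT anther values were 41.3 CPM after heat and 2.42 in control, which is 17.1-fold (11.8 to 25.6) higher. In A2AS leaf it was at 2.40 CPM after heat, against 7.03 in control, and in WT leaf at 9.02 CPM after heat, against 44.0 in control. These leaf values are 2.93-fold (1.69 to 5.43) lower in A2AS and 4.88-fold (4.01 to 5.99) lower in WT. Heated WT anthers were thus near the level of unheated WT leaf.

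Solyc07g052480 was the other member that was at least 2-fold lower after heat in both leaf pairs. Its leaf values were 42.9 CPM after heat and 108 in control in A2AS, and 27.9 and 63.3 CPM in WT, which is 2.52-fold (2.22 to 2.89) and 2.27-fold (2.01 to 2.58) lower. In anthers the same gene had 41.4 CPM after heat and 18.6 in control in the libraries labelled A2AS, and 41.8 and 18.05 CPM in WT. Of the 7851 genes whose mean reached 10 CPM in both leaf pairs, 0.471% were at least 2-fold lower in both. Since the rule set no lower bound in leaf, nothing is read from 2 of 42. In total 8 members were below 0 on the log2 scale in both leaf pairs, 23 were above 0 in both and 11 differed in sign. Counting intervals lay below 1 in both leaf pairs for 3 members and above 1 in both for 15.

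Members differed widely in their leaf level. Of the 42, 5 stayed under 3 CPM in all leaf libraries, namely Solyc08g074720, Solyc12g013700, Solyc05g053620, Solyc02g088380 and Solyc03g120900. For these genes the leaf ratio has little precision, and a 2-fold leaf change was not excluded by the counting intervals in at least 1 pair. Solyc12g013700 had 81.1 CPM after heat and 13.4 in control in anthers labelled A2AS, and 91.2 and 11.6 CPM in WT anthers, against at most 0.507 CPM in leaf. The ratios were 6.05-fold (5.20 to 7.06) in the A2AS pair and 7.86-fold (6.61 to 9.40) in the WT pair. Solyc02g088380 had 28.5 CPM after heat and 5.62 in control in anthers labelled A2AS, and 23.0 and 8.22 CPM in WT anthers. Its leaf level was listed at 0 in heated A2AS leaf, where 3 reads would be 0.480 CPM, and at 0.0725 CPM in A2AS control, 0.433 in heated WT and 0.260 in WT control leaf. Solyc03g120900 had 51.1 CPM after heat and 24.7 in control in anthers labelled A2AS, and 64.7 and 29.1 CPM in WT. In leaf it had 1.12 CPM after heat and 0.870 in control in A2AS, and 1.80 and 0.520 CPM in WT. The last pair is 3.47-fold (1.39 to 10.3), so this gene sits under the leaf limit only on the log2(value + 1) scale. The same holds for the A2AS leaf values of Solyc08g074720, at 2.65-fold (0.674 to 10.98), and of Solyc08g075780, at 2.01-fold (1.78 to 2.26).

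At the other end, 4 members had fewer tags in heated anthers than in unheated leaf in both genotypes. Solyc08g076880 was the clearest, with 19.9 CPM after heat and 7.11 in control in anthers labelled A2AS, and 17.3 and 8.06 CPM in WT anthers. In leaf it had 311 CPM after heat and 434 in control in A2AS, and 434 and 531 CPM in WT. Its anther values are 2.80-fold (2.23 to 3.53) higher after heat in the A2AS pair and 2.15-fold (1.70 to 2.75) in WT. Heated anthers thus stayed far below every leaf library. The summed Rubisco leaf markers were lower in heated than in control anthers, at 2172 against 2776 CPM in the libraries labelled A2AS and 1967 against 2680 CPM in WT. Of the 3 genes, RBCS3 (Solyc02g085950) went the other way in anthers labelled A2AS, at 180 CPM after heat and 157 in control (1.15-fold, 1.08 to 1.21), against 155 and 209 CPM in WT anthers. Any link between these markers and the anther values of the members was not tested. Solyc07g009380 had 39.4 CPM after heat and 13.3 in control in anthers labelled A2AS, 35.1 and 12.2 CPM in WT anthers, and 76.9 to 107 CPM in leaf. Solyc10g078920 had 23.0 CPM after heat and 7.59 in control in anthers labelled A2AS, 24.0 and 9.75 CPM in WT anthers, 24.3 and 29.1 CPM in A2AS leaf, and 16.4 and 29.5 CPM in WT leaf. Solyc07g052480 was the remaining one.

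In 15 members, 4 of the 5 low ones among them, unheated leaf was below unheated anthers in both genotypes. In 9, unheated leaf lay between control and heated anthers in both. The most abundant member, Solyc06g007510, had 565 CPM after heat and 244 in control in anthers labelled A2AS, and 517 and 230 CPM in WT anthers. In leaf its values were 615 CPM after heat and 387 in control in A2AS, and 1010 and 650 CPM in WT. In A2AS the anther ratio of 2.32 (2.23 to 2.41) stands beside a leaf ratio of 1.59 (1.52 to 1.65). In WT the anther ratio was 2.25 (2.15 to 2.35) and the leaf ratio 1.55 (1.51 to 1.60). All 4 pairs were thus higher after heat, and the tissues differed in degree. The values of Solyc06g007510 were whole reads in only 2 libraries, so its intervals rest on rounded reads. Solyc03g083770, the next most abundant in heated anthers, was nearly flat in leaf. It had 372 CPM after heat and 172 in control in anthers labelled A2AS, 348 and 118 CPM in WT anthers, 202 and 176 CPM in A2AS leaf, and 227 and 225 CPM in WT leaf. The smallest mean anther ratios were those of Solyc07g041190 and Solyc02g077880. Solyc07g041190 had 61.7 CPM after heat and 29.2 in control in anthers labelled A2AS, 55.6 and 25.8 CPM in WT anthers, 30.6 and 22.6 CPM in A2AS leaf, and 28.3 and 20.0 CPM in WT leaf. Solyc02g077880 had 216 CPM after heat and 102 in control in anthers labelled A2AS, 217 and 103 CPM in WT anthers, 80.4 and 69.2 CPM in A2AS leaf, and 78.6 and 103 CPM in WT leaf. In leaf Solyc02g077880 was thus higher after heat in A2AS and lower in WT.

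**Figure D3:**
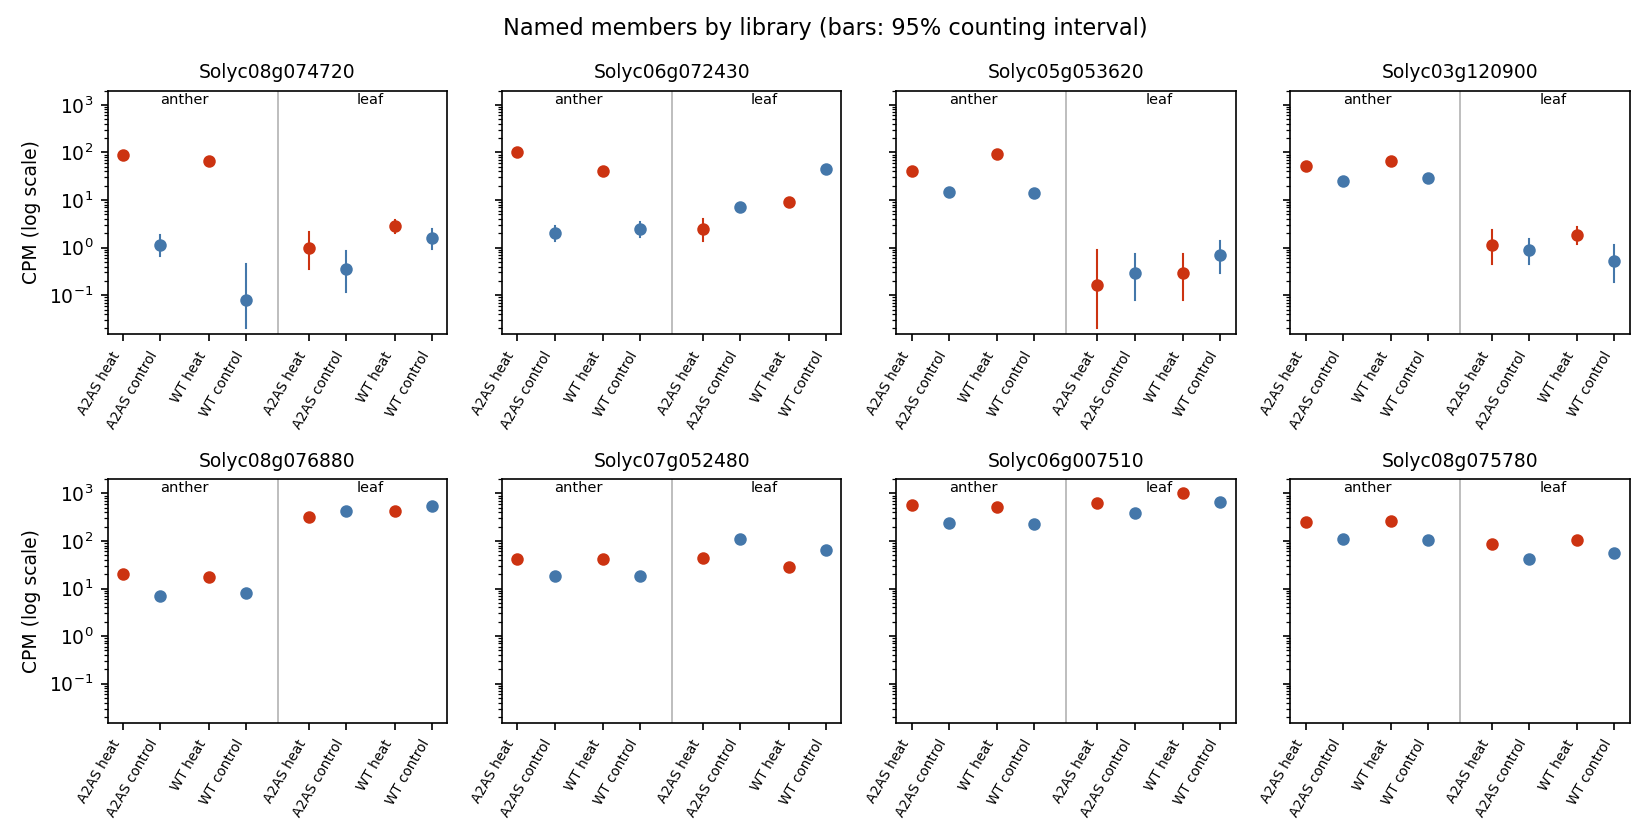
Points give the CPM of 8 named members in each library on a log scale, with heat in red and control in blue, and bars give 95% exact counting intervals, cut at the low end of the axis. Upper panels hold members low in leaf after heat (Solyc06g072430 reaches 44.0 CPM in unheated WT leaf). Lower panels hold members whose unheated leaf level exceeds that of heated anthers in both genotypes or whose leaf pairs are also higher after heat.

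How far the tissues were apart varied widely. The anther minus leaf difference of the log2 heat ratio had a median of 1.24 in A2AS (lowest 0.15) and 1.22 in WT (lowest 0.14), values that the choice of members sets in part. It was at least 1 in both genotypes for 20 members and under 0.5 in at least 1 genotype for 10. Solyc08g075780 and Solyc05g053040 were under 0.5 in both. Solyc08g075780 had 247 CPM after heat and 112 in control in anthers labelled A2AS, and 261 and 106 CPM in WT anthers. In leaf it had 84.2 and 42.0 CPM in A2AS, and 102 and 55.1 CPM in WT, a 1.86-fold difference (1.69 to 2.04). This gene was higher after heat in all 4 pairs by similar factors. For 29 members the anther interval lay above the leaf interval in both genotypes. At this depth, 26 had leaf intervals wholly below 2-fold in both pairs, and 25 had anther intervals wholly above 2-fold in both.

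**Figure D4:**
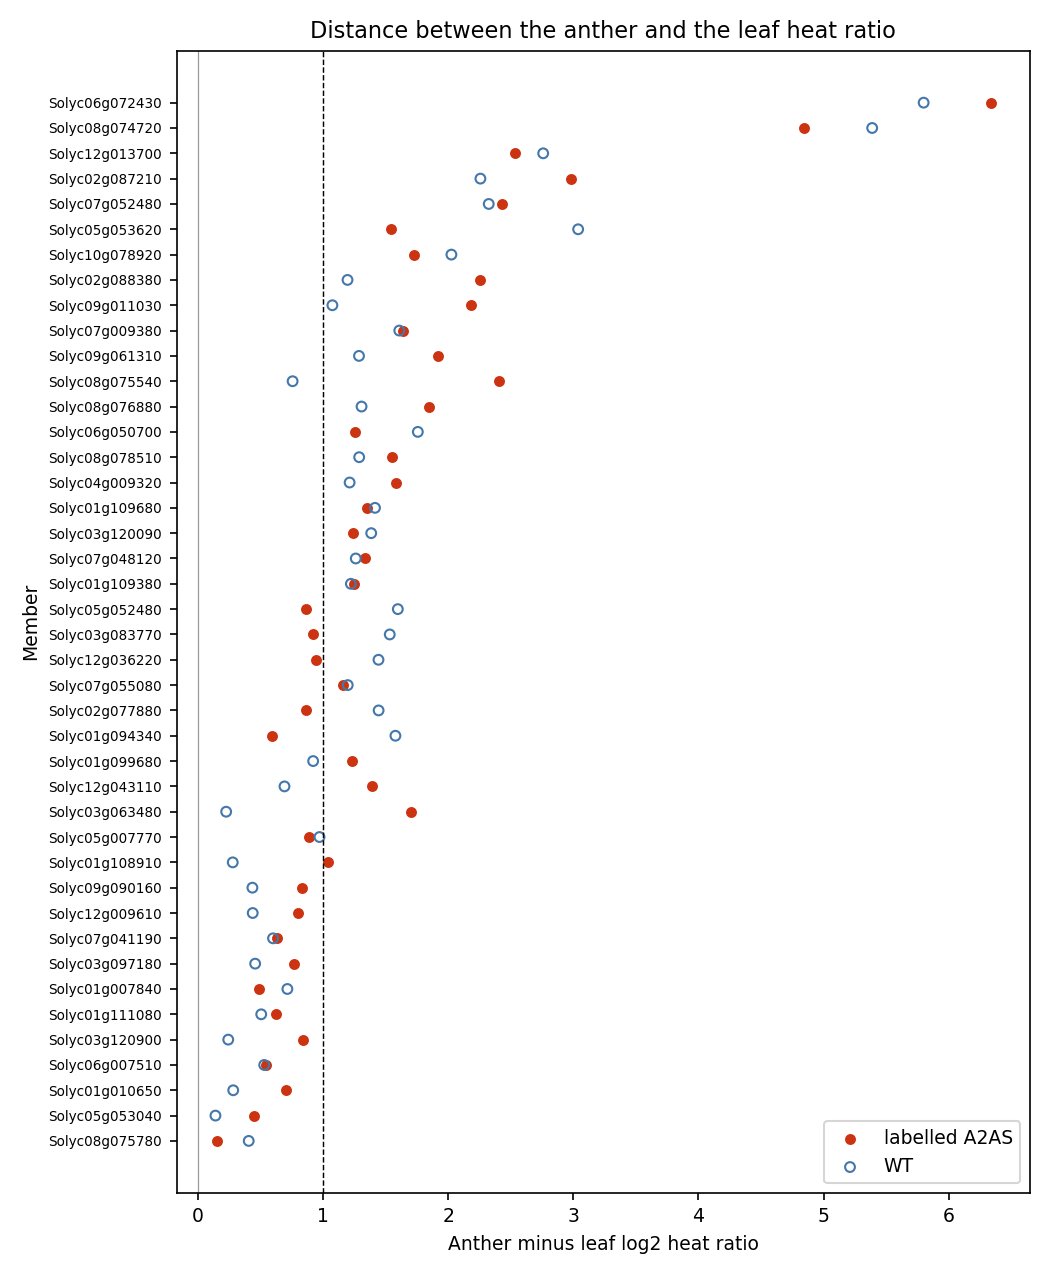
For each of the 42 members (rows) the anther minus leaf difference of the log2 heat ratio is shown for libraries labelled A2AS (filled) and WT (open); the dashed line marks a 2-fold difference between the tissues' ratios. The lowest value is 0.14, and 20 members lie right of the line in both genotypes.

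Values at the limits show how narrow they are. The lowest member in WT anthers was Solyc08g076880 at a log2 ratio of 1.02, Solyc02g083200 was outside at 0.99, and 49 genes missed this limit alone. In anthers labelled A2AS, Solyc03g120900 was inside at 1.02 and Solyc04g082890 outside at 0.94, and 77 genes missed this limit alone. For WT leaf, Solyc03g063480 was inside at 0.94 and HsfA2 outside at 1.01, and 9 genes missed this limit alone. For A2AS leaf, Solyc08g075780 was inside at 0.99 and MBF1c (Solyc01g104740), a transcriptional coactivator, outside at 1.12, with 10 genes missing it alone. Pair means of the members were at least 12.5 CPM in WT anthers (Solyc12g036220) and 13.5 CPM in anthers labelled A2AS (Solyc08g076880). The nearest genes below the minimum were Solyc04g080680 at 9.41 CPM in WT anthers and Solyc03g119620 at 9.73 CPM in those labelled A2AS.

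Without heat the members were split between the tissues. In control plants 8 members were at least 2-fold higher in anther than in leaf in A2AS and 8 were at least 2-fold lower. In WT these counts were 6 and 13. Over all genes averaging 10 CPM or more, a minimum not applied to the members here, 26% were higher and 15.9% lower in A2AS, and 19.2% higher and 19.4% lower in WT. The median log2 ratio of anther over leaf in control plants was 0.24 in A2AS and −0.40 in WT, beside 0.47 and 0.11 over all genes. After heat, when the rule favours high anther levels, 27 members were higher and 1 lower in anther in A2AS, where 25.9% and 14.8% of all genes were. In WT 16 were higher and 4 lower, where 16.8% and 18.4% of all genes were. The widest control ratios toward anther were those of Solyc03g120900 (mean log2 ratio 4.04) and Solyc05g053620 (3.38). The widest toward leaf were those of Solyc08g076880 (−5.81) and Solyc07g009380 (−2.81).

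The comparison of A2AS with WT, which bears on the part of HsfA2 named in the study's title, was not a contrast of the rule. In heated anthers 1 member was at least 2-fold higher and 1 at least 2-fold lower in the library labelled A2AS than in WT, where 0.918% and 1.37% of 9476 genes were. In control anthers no member was, beside 0.695% higher and 1.32% lower over all genes. The members' median log2 ratio of A2AS over WT was 0.10 in heated anthers and −0.01 in control anthers, beside 0.08 in each over all genes. Under median-ratio scaling the member medians were 0.02 and −0.09, so no direction is given for anthers. The anther heat ratio was larger in A2AS for 23 members and smaller for 19, where 52.3% of all genes were larger. It differed by less than 0.5 log2 between the genotypes for 34 of the 42, a count that the rule sets in part, since both ratios had to reach 1. The heated anther library labelled A2AS is the one whose HsfA2 level goes against its label.

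The 2-fold differences in heated anthers were those of Solyc06g072430 and Solyc05g053620. Solyc06g072430 was 2.49-fold (2.26 to 2.75) higher in heated anthers labelled A2AS, and its heat ratio exceeded that of WT by 1.47 log2, the largest excess among the members. The other gene, Solyc05g053620, had 40.3 CPM after heat and 14.8 in control in anthers labelled A2AS, and 93.4 and 14.1 CPM in WT anthers. After heat it was 2.32-fold (2.10 to 2.56) lower in the library labelled A2AS, and in control the levels differed by less than the counting interval (1.05-fold, 0.854 to 1.29). In leaf it was at most at 0.694 CPM. Solyc08g074720 had the next smallest heat ratio relative to WT (−0.59 log2), a value that rests on the 1 read of its WT control. With a pseudocount of 5 the direction turned, with log2 heat ratios of 3.92 in anthers labelled A2AS and 3.81 in WT anthers. Solyc03g063480 had the next largest excess of the heat ratio (0.99 log2), with 91.9 CPM after heat and 19.8 in control in anthers labelled A2AS, and 75.8 and 33.3 CPM in WT. Its values are not whole reads in any library. How tags matching several loci were counted is not stated, so its single values are less certain.

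In leaf, A2AS over WT was below 0 on the log2 scale for 34 of the 42 members in heated plants and for 34 in control plants, with no minimum applied. Of the genes averaging 10 CPM or more, 74.2% and 72.2% were below 0, so nothing is read from these counts. Under median-ratio scaling they were 28 in heated and 31 in control leaf. The shares of all genes just given do not apply to that scaling, under which the medians of all genes were near 0. No share of all genes below 0 is given for it, so nothing is read from these 2 counts either. At a mean of at least 10 CPM over both genotypes, 9 of 33 members were at least 2-fold lower in heated A2AS leaf and 5 of 31 in control A2AS leaf, where 6.51% of 8727 and 2.76% of 8331 genes were. No member was 2-fold higher, beside 3.44% and 1.93% of all genes. Scaling changes these counts: under median-ratio scaling they were 3 of 33 and 4 of 31, beside 2.36% and 1.48% of all genes. Median log2 ratios of all members were −0.50 in heated and −0.39 in control leaf, beside −0.32 and −0.21 over all genes. They were −0.27 and −0.22 under median-ratio scaling, where the medians of all genes were −0.02 and −0.00. The 78 genes higher after heat in both tissues had medians of −0.99 in heated and −1.11 in control leaf. The difference between the gene groups was not tested. Solyc01g111080 was among the members with the widest leaf difference, at 144 CPM in A2AS and 497 in WT after heat, and at 92.8 and 339 CPM in control. After heat it was lower in A2AS by a factor of 3.46 (3.22 to 3.71) and in control by 3.66 (3.43 to 3.90), but its values were whole reads in only 1 library. In anthers it had 101 CPM after heat and 41.9 in control in the libraries labelled A2AS, and 116 and 55.3 CPM in WT. Solyc06g072430 was lower as well, by 3.75-fold (2.19 to 6.91) in heated and 6.26-fold (5.03 to 7.87) in control leaf. Solyc07g052480 was higher in A2AS leaf, by 1.54-fold (1.31 to 1.81) after heat and 1.71-fold (1.57 to 1.87) in control.

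**Figure D5:**
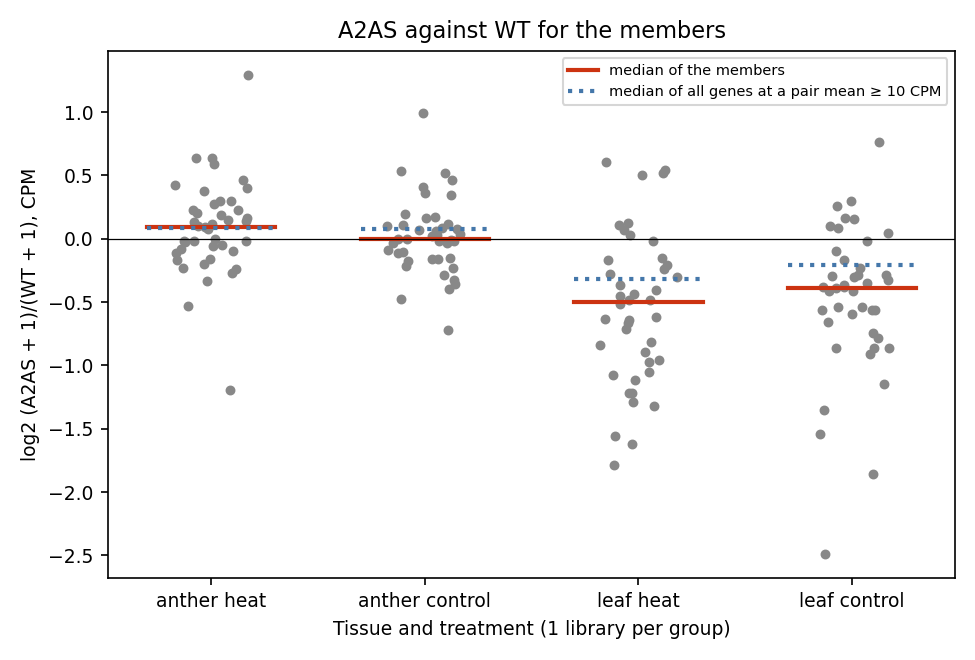
Each grey point is the log2 (A2AS + 1)/(WT + 1) of 1 member in heated and control anthers and leaves; red lines are member medians and dotted blue lines the medians of all genes at a mean of at least 10 CPM. In anthers both medians lie within 0.10 of 0, and in leaf both are below 0 at the deposited scaling.

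No member was called in any test of genotype, and neither was HsfA2, which the study describes as suppressed in A2AS plants. HsfA2 differed by −1.03 ± 0.53 log2 (SE) over the 4 pairs (limma adjusted p = 0.618). That value averages lower A2AS levels in both leaf pairs and control anthers with a higher one in heated anthers. Within anthers the HsfA2 difference was 0.15 ± 0.35 log2 (limma adjusted p = 0.969), and for the heat ratio 0.24 ± 0.54 log2 (limma adjusted p = 0.998). Over the 4 tissue and treatment pairs, limma called none of 15220 genes (0%), with 1303 (8.56%) at an unadjusted p under 0.05. Among the members 5 of 42 (11.9%) were, all 5 lower in A2AS. No share of lower genes among the 1303 is given, and in leaf 74.2% (heated) and 72.2% (control) of genes averaging 10 CPM or more were lower in A2AS. Nothing is thus read from the direction of the 5. The smallest member p belonged to Solyc01g111080, with a difference of −1.06 ± 0.31 log2 (SE; limma adjusted p = 0.577) and lower values in A2AS in 4 of 4 pairs. Solyc08g078510 followed at −0.59 ± 0.20 log2 (limma adjusted p = 0.577), with 33.3 CPM after heat and 7.65 in control in anthers labelled A2AS, against 40.3 and 8.22 CPM in WT, and 18.9 and 13.7 CPM in A2AS leaf, against 45.3 and 24.3 CPM in WT leaf. Among the members that were higher, the smallest p values were those of Solyc07g052480 (0.35 ± 0.17 log2, limma adjusted p = 0.615) and Solyc07g041190 (0.15 ± 0.12 log2, limma adjusted p = 0.696). Within anthers limma called none of 15220 genes (0%). At an unadjusted p under 0.05 were 765 genes (5.03%), and 4 of the 42 members (9.52%). The anther differences were −0.30 ± 0.11 log2 for Solyc01g111080 and −0.56 ± 0.30 log2 for Solyc05g053620 (limma adjusted p = 0.932 for each). Solyc08g074720, with that 1-read control, differed by 0.70 ± 0.21 log2 (limma adjusted p = 0.916). Solyc03g120090 was higher in both anther pairs labelled A2AS, by 0.55 ± 0.13 log2 (limma adjusted p = 0.704), with 120 CPM after heat and 42.3 in control, against 77.0 and 30.5 CPM in WT. In leaf the same gene was lower in A2AS, at 10.7 CPM after heat and 8.92 in control, against 26.3 and 27.8 CPM in WT. Solyc05g007770 showed the same split, with 38.3 CPM after heat and 13.8 in control in anthers labelled A2AS, against 29.2 and 10.2 CPM in WT, and 21.5 and 14.6 CPM in A2AS leaf, against 54.0 and 38.8 CPM in WT leaf. Its anther difference was 0.40 ± 0.12 log2 (limma adjusted p = 0.886). For the genotype difference of the heat ratio, with the tissues as the only repeats, limma again called none (0%). At an unadjusted p under 0.05 were 570 of 15220 genes (3.75%), and 2 of the 42 members (4.76%). Every heat ratio compared in this test had to pass a limit of the rule. The members' differences and p values here are thus set in part by their choice. Solyc06g072430 had the smallest member p (0.00216 unadjusted; limma adjusted p = 0.998), with the larger log2 ratio in A2AS in both tissues. Solyc07g048120 had the larger ratio in A2AS as well, by 0.44 ± 0.18 log2, while Solyc01g099680 and Solyc04g009320 had smaller ratios in A2AS, with differences of −0.38 ± 0.19 and −0.40 ± 0.23 log2 (limma adjusted p = 0.998 for each). Solyc07g048120 had 60.5 CPM after heat and 20.4 in control in anthers labelled A2AS, against 39.9 and 18.8 CPM in WT anthers, and 18.3 and 15.9 CPM in A2AS leaf, against 25.4 and 29.7 CPM in WT leaf. The residual in these fits is how the genotype difference varies over tissues and treatments, not a spread between plants. A p that misses the threshold does not show equal levels.

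The members closest to each other in the order of the IDs, Solyc08g075540 and Solyc08g075780, were 24 listed genes apart. In 25 of the 42 members every value was a whole number of reads within 0.001 of a read, and Solyc03g063480 was whole in none.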

How the data were processed

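Values are the CPM the authors deposited (called TPM in the tables), from 3′ tags of the last 500 bp of poly(A) RNA, per the labels' protocols, scaled to 1000000 per library. The submitters' processing notes name FastQC. Aligner, build, annotation, strand and counting: not given in the sources used here. In each library, the most common value above 0 was taken as 1 read, which gives the depth. Between 77.6% and 83.9% of values above 0 were whole reads within 0.001, so no count model was run. Listed genes held 69.2% to 73.4% of each library, and no 2 libraries had identical values.

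A pseudocount of 1 CPM was added before taking log2 ratios, so those of low genes are understated. Folds are ratios of the values, with exact (Clopper-Pearson) 95% intervals from rounded reads (scipy 1.17.1). Without molecular identifiers, reads are not independent molecules, so intervals cover counting error only. Genotype was tested by limma 3.58.1 on log2(value + 1) in all 8 libraries, for the 15220 genes averaging 2 CPM or more, with Benjamini-Hochberg adjustment at 0.05. The tissue and treatment pair was a block, and for the heat ratio difference the tissues were the repeats. On simulated data with 200 genes changed by 1 log2 among 15220, 94.5% were recovered over the 4 pairs, 85.5% in anthers and 54.5% for the heat ratio difference. The simulated counts had the same dispersion for every gene and no difference between tissues. No genotype effect varied between tissues in them, whereas such variation is part of the residual in the measured data. In the measured data, HsfA2 at −1.03 ± 0.53 log2 (SE) over the 4 pairs was not called (limma adjusted p = 0.618). Neither was Solyc01g111080 at −1.06 ± 0.31 log2 (limma adjusted p = 0.577). The shares recovered thus do not give the sensitivity in the measured data, which was not tested. Groups follow the labels.

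The members and the lists were chosen with earlier results of these data known. Members were named by rank, with 2 each for the largest and smallest mean anther heat ratio, the highest heated anther level, the highest and lowest leaf level, the lowest leaf ratio, the widest control ratio of anther over leaf, the widest genotype difference of the anther ratio and of the anther level, and the smallest p per direction and test, and with the gene on each side of every limit. The nearest members by ID and HsfA2 were also named. Solyc12g013700, Solyc05g053040, Solyc10g078920, Solyc06g050700, Solyc07g055080 and HsfA3 were named after their values were seen. Alternatives were another pseudocount, scaling, minimum, fold or leaf limit, 1 genotype alone and pairs left out.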

Additional observations from a re-analysis of the deposited data

Results flagged for a closer look

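Of the 42 members, 8 had log2 heat ratios above 0 in both anther pairs and below 0 in both leaf pairs. In leaf the counting interval of the fold lay below 1 in both pairs for only 3 members, Solyc06g072430, Solyc07g052480 and Solyc08g076880. For Solyc07g055080 the leaf log2 ratios were −0.03 in A2AS and −0.05 in WT. The anther direction was fixed by the choice of members, and the difference between the tissues was not tested. As the mean anther minus leaf difference of the log2 heat ratio over both genotypes, the values were 6.07 for Solyc06g072430 and 2.38 for Solyc07g052480, the only members of the 8 at least 2-fold lower in both leaf pairs. The difference was 2.29 for Solyc05g053620, whose leaf values were at most 0.694 CPM. It was 1.88 for Solyc10g078920, 1.63 for Solyc07g009380, 1.58 for Solyc08g076880, 1.51 for Solyc06g050700 and 1.18 for Solyc07g055080. Under median-ratio scaling the number of members below 0 was 16 in A2AS leaf and 16 in WT leaf, against 15 and 12 at the deposited scaling.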

How the results depend on the processing

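The number of genes that meet the rule depends on its limits. It was 42 as reported, 43 with a pseudocount of 0.5, 33 with 5, 30 under median-ratio scaling and 34 with a minimum of 20 CPM. It was 93 with no minimum, 26 with a leaf limit of 0.58 log2, 4 with an anther limit of 2 log2, 113 from the A2AS pairs alone and 141 from the WT pairs alone. Chosen after seeing the data, leaving out the A2AS anther pair gave 129 genes, leaving out the A2AS leaf pair 52, and a minimum difference of 1 log2 between the tissues in place of the leaf limit 52, which held 20 of the members. Median-ratio scaling kept 28 of the 42 members and the pseudocount of 5 kept 26. The scaling lowered the members' log2 heat ratio by a median of 0.12 in A2AS and 0.13 in WT anthers. Among all genes, limma called 1 over the 4 pairs with no minimum mean value, and 1 within anthers with a pseudocount of 5 and 1 under median-ratio scaling, where 0 were called as reported, and the cause was not tested. Leaving out each of the 4 pairs in turn gave 0 to 0 calls over the 4 pairs. No member was called under any alternative run for the 3 limma tests. The labels give no replicate numbers, so no replicate pairing could be tried beside the tissue and treatment pairs used as a block. The depth limits the 5 members under 3 CPM in leaf, whose leaf ratios rest on few reads.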
